A study of Homo sapiens with 8 samples.

Results

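The keratins KRT7, KRT8, KRT15, KRT18, KRT19, KRT23, KRT80, KRT81 and KRT86 were followed across 8 RNA sequencing libraries that carry the label U87 MG, a human glioblastoma cell line in wide use. They were taken by name, as 9 of the 23228 genes listed in every library and 9 of the 60 listed genes with a keratin symbol. All 9 had enough reads to be tested, among 13915 tested genes. The labels gave 4 groups of 2 libraries. ERβ5 libraries came from cells in which estrogen receptor beta (ERβ, gene ESR2) had been knocked out with CRISPR/Cas9 and the ERβ5 isoform put back. ERβ1 libraries came from the same knockout background with the ERβ1 isoform put back, ERβ-KO libraries from the knockout cells alone, and control libraries from cells described only as control. All were grown in DMEM with fetal bovine serum. The labels do not say whether the knockout was 1 clone, which promoter drove the isoforms, or whether replicates were grown as separate cultures. The p-values therefore cover the spread among these samples alone, and that spread may be technical. By its title, the study asked how ERβ isoforms differ in their effect on glioblastoma.

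Keratins are the intermediate filament proteins of epithelial cells. A filament forms only when an acidic type I keratin pairs with a basic type II keratin, and a partner left without its mate is usually degraded. Simple epithelia, such as the luminal cells of the breast and the lining of the gut, rely on KRT8 (type II) paired with KRT18 and KRT19 (type I), while glial cells and gliomas normally build their filaments from vimentin and GFAP. Among the 9 genes, KRT15, KRT18, KRT19 and KRT23 encode type I and KRT7, KRT8, KRT80, KRT81 and KRT86 type II keratins. On GRCh37, all type II members and KRT18 lie on chromosome 12, and KRT15, KRT19 and KRT23 lie on chromosome 17, where most type I keratin genes are clustered. KRT8 (chr12:53290971-53343738, minus strand) and KRT18 (chr12:53342655-53346690, plus strand) are neighbours whose annotated ends overlap on opposite strands without shared exon bases in their canonical transcripts.

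Libraries held between 26760897 and 48076414 reads in genes, and the pairs of replicates had r = 0.991 to 0.996 over genes, which are not independent of each other. The labelled cell line was checked against marker genes. Of 15 glial and glioma markers, OLIG2, S100B and POSTN had 0 reads in every library, GFAP had 0.0459 to 0.136 CPM (counts scaled to a common library size) and VIM, the gene for vimentin, 1.82 to 12.4 CPM. Another 4 of the 15 reached 10 CPM in every library, SOX2 at 11.4 to 30.2 CPM and the widely expressed CD44, LGALS1 and FN1 at 47.4 to 61.9, 57.0 to 104 and 52.7 to 175 CPM. All 15 luminal epithelium markers reached 10 CPM in every library, with CDH1 at 1730 to 2640 CPM and GATA3 at 1120 to 1840 CPM. The glial markers GFAP, OLIG2 and S100B were therefore at or near 0 in libraries that carry a glioblastoma label, and groups are named here by their labels. ESR2 had 7 and 10 reads in ERβ5, 6 and 18 in ERβ1, 23 and 21 in ERβ-KO, and 25 and 20 in control, and passed in none of the 6 comparisons. They give no sign of the returned isoforms, although a construct need not be counted in ESR2 and a CRISPR knockout need not lower the transcript. In bulk RNA, fewer cells of a type and less RNA per cell cannot be told apart.

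KRT8, KRT18 and KRT19 made up nearly all of the keratin signal. Per kilobase of transcript, they held 99.5 to 99.7% of the summed level of the 9 genes in every library. That scale allows for transcript length, but not for reads that have no single place in the genome. KRT8 averaged 2323 ± 222 CPM per kb in ERβ5 libraries, 2338 ± 223 in ERβ1, 1169 ± 22.2 in ERβ-KO and 1758 ± 123 in control (SD, n = 2 each, as for all group means). KRT18 averaged 1848 ± 73.7 CPM per kb in ERβ5, 2254 ± 80.6 in ERβ1, 1272 ± 141 in ERβ-KO and 1614 ± 141 in control. KRT19 averaged 805 ± 28.5 CPM per kb in ERβ5, 993 ± 104 in ERβ1, 450 ± 37.4 in ERβ-KO and 794 ± 41.4 in control. All 3 were lowest in the ERβ-KO libraries. The remaining 6 members were far lower. KRT80 averaged 8.60 to 10.0 CPM per kb over the groups, KRT7 averaged 2.98 to 4.59, and KRT15, KRT23, KRT81 and KRT86 each averaged under 2 CPM per kb in every group. Together the 9 genes took 0.754 and 0.831% of scaled reads in ERβ5, 0.926 and 0.832% in ERβ1, 0.434 and 0.476% in ERβ-KO, and 0.623 and 0.691% in control.

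**Figure D1:**
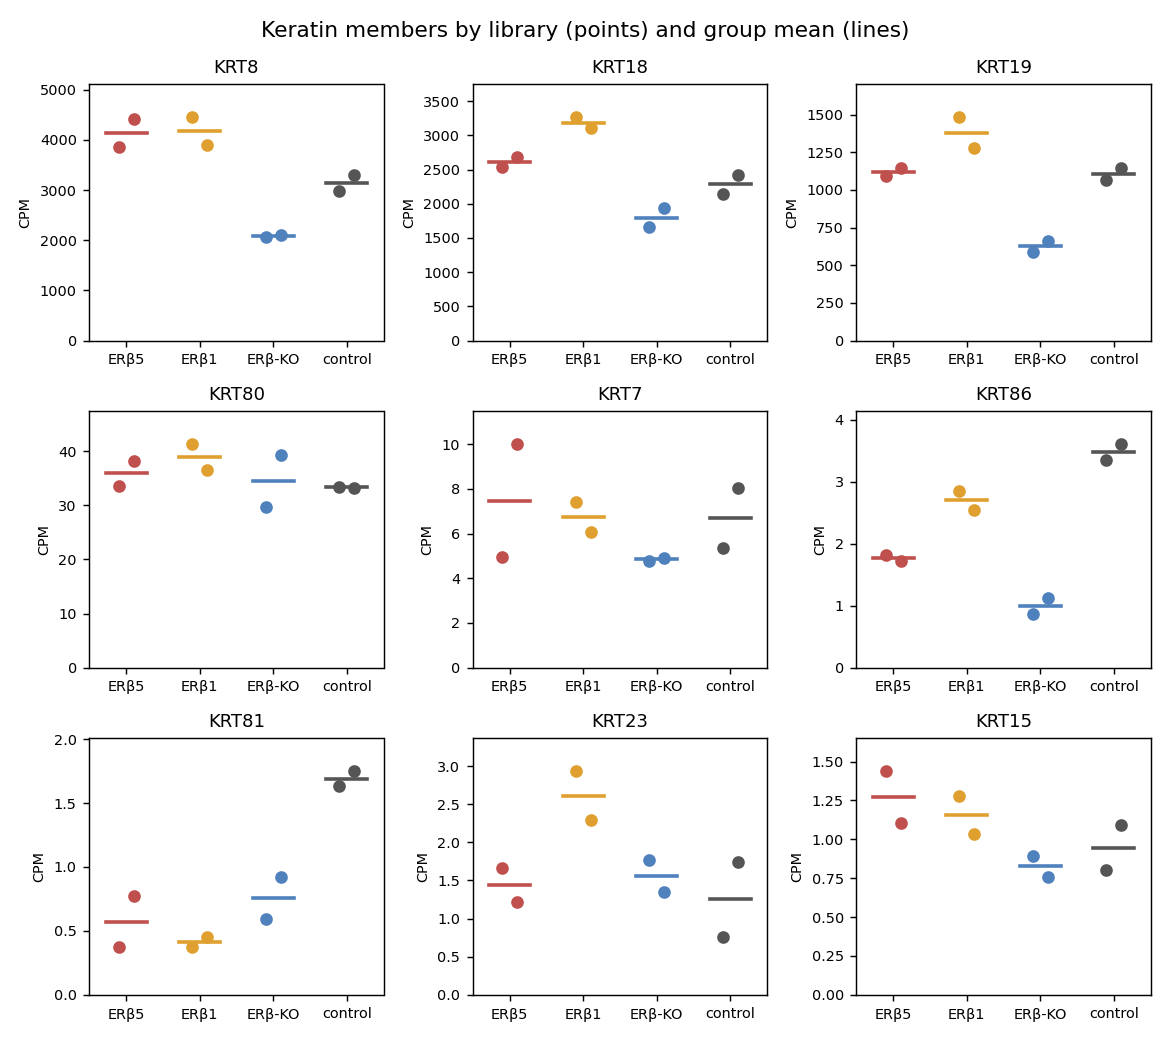
Levels of the 9 keratins in CPM, with 1 point for each library and a line at each group mean (n = 2 per group). KRT8, KRT18 and KRT19 sit above the other 6 genes in every library, and their lowest points are the ERβ-KO libraries.

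Against control, the ERβ-KO libraries held less mRNA of the simple-epithelial keratins KRT8 and KRT19 and of the hair keratins KRT81 and KRT86. KRT8, the main type II keratin of simple epithelia, had 2057 and 2113 CPM in ERβ-KO libraries, against 2980 and 3292 CPM in control libraries. KRT19, a short type I keratin that nearly lacks the tail domain and marks luminal and ductal cells, had 589 and 663 CPM in ERβ-KO, against 1063 and 1144 CPM in control. KRT18, the usual type I partner of KRT8, had 1657 and 1938 CPM in ERβ-KO, against 2140 and 2422 CPM in control. In all 3 genes both ERβ-KO libraries lay below both control libraries. Such separation is frequent with so few libraries and was not counted over all tested genes. The log2 difference was -0.59 ± 0.11 (SE) for KRT8 (adjusted p = 0.0075) and -0.82 ± 0.11 for KRT19 (adjusted p = 0.00142) in edgeR's quasi-likelihood test (Benjamini-Hochberg adjustment over all tested genes, threshold 0.05). KRT18 differed by -0.34 ± 0.11 and did not pass (edgeR adjusted p = 0.0559).

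Of the 9 keratins, 4 fell in ERβ-KO against control and none rose, where 8.52% of all tested genes fell, 8.98% rose and 17.5% changed in either direction. The median log2 difference was -0.47 over the 9 keratins and 0.01 over all tested genes. The KRT8 call was lost without control replicate 2 (log2 -0.52, edgeR adjusted p = 0.108) and without ERβ-KO replicate 1 (-0.57, adjusted p = 0.0536), and KRT18 passed without ERβ-KO replicate 2 (-0.46, adjusted p = 0.0419). KRT18 also passed with no filter on low genes (-0.35, edgeR adjusted p = 0.0117), with the compared groups alone (-0.34, adjusted p = 0.0307) and in DESeq2 (-0.35, adjusted p = 0.0241). KRT19 kept its call with each of the 4 libraries left out in turn.

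The ERβ-KO libraries also differed from the others in how gene levels followed base composition. Across 13123 tested genes with a known transcript sequence, the log level of a gene in 1 library, less its mean over the 8 libraries, was correlated with GC content at r = -0.566 and -0.464 in ERβ-KO libraries, against -0.137 to 0.356 in the other 6. The 9 keratin transcripts were 50.7 to 62.3% GC, above the median tested gene. Genes within 1 percentage point of KRT8's GC content had a median log2 difference of -0.22 in ERβ-KO against control, and for KRT19 that median was -0.28. With each library's GC and length trend removed, KRT8 differed by -0.33 (edgeR adjusted p = 0.0239) and KRT19 by -0.47 (adjusted p = 0.00608), and both still passed. KRT18 differed by -0.09 with the trend removed, against -0.34 without that step.

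**Figure D2:**
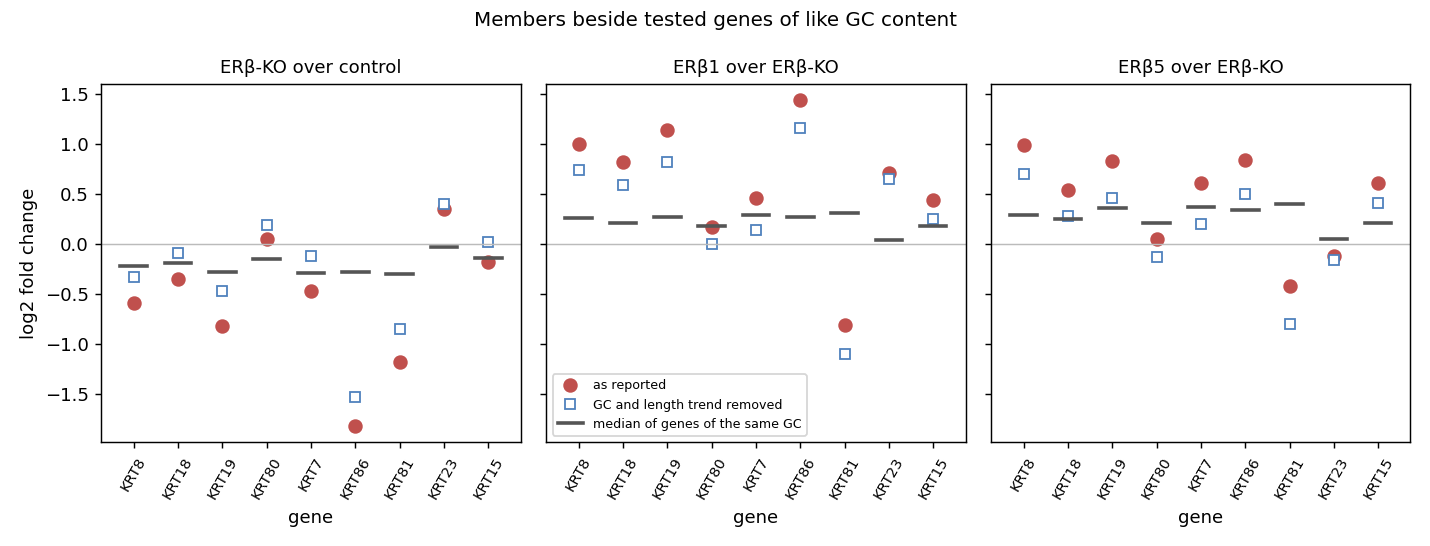
For each keratin, the log2 difference between groups beside the median log2 difference of tested genes within 1 percentage point of its GC content. KRT8, KRT19 and KRT86 lie further from 0 than genes of the same GC content in ERβ-KO against control and in ERβ1 against ERβ-KO.

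With ERβ1 put back, the simple-epithelial keratins rose relative to the knockout. KRT8 had 4453 and 3890 CPM in ERβ1 libraries, against 2057 and 2113 CPM in ERβ-KO libraries, and KRT18 had 3266 and 3104 CPM in ERβ1, against 1657 and 1938 CPM in ERβ-KO. KRT19 had 1483 and 1278 CPM in ERβ1, against 589 and 663 CPM in ERβ-KO. The groups did not overlap in any of the 3 genes, a separation that is frequent with so few libraries and was not counted over all tested genes. The log2 difference was 1.00 ± 0.11 for KRT8 (edgeR adjusted p = 0.000154), 0.83 ± 0.11 for KRT18 (adjusted p = 0.000535) and 1.14 ± 0.11 for KRT19 (adjusted p = 4.73e-05). KRT86 rose as well, and is described with KRT81. In all, 4 of the 9 keratins rose and none fell, where 12.4% of all tested genes rose, 12.5% fell and 24.9% changed in either direction. The median log2 difference was 0.71 over the 9 keratins, against 0.00 over all tested genes. The calls of KRT8, KRT18, KRT19 and KRT86 held in each of the 12 alternative fits, with log2 differences of 0.74 to 1.09 for KRT8, 0.59 to 0.94 for KRT18 and 0.82 to 1.24 for KRT19.

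With ERβ5 put back, KRT8, KRT18, KRT19 and KRT86 were again higher than in the knockout. This comparison shares the ERβ-KO libraries with the preceding ones, so its values are not independent of them. KRT8 had 3865 and 4425 CPM in ERβ5 libraries, against 2057 and 2113 CPM in ERβ-KO. KRT18 had 2537 and 2685 CPM in ERβ5, against 1657 and 1938 CPM in ERβ-KO, and KRT19 had 1091 and 1147 CPM, against 589 and 663 CPM. Every ERβ5 library lay above both ERβ-KO libraries in these 3 genes, with the same limit on such separation as in the other comparisons. The log2 difference was 0.99 ± 0.11 for KRT8 (edgeR adjusted p = 0.00037), 0.54 ± 0.11 for KRT18 (adjusted p = 0.00725) and 0.84 ± 0.11 for KRT19 (adjusted p = 0.000783). These 3 calls held in all 12 alternative fits, but the differences of KRT18 and KRT19 came down to 0.28 and 0.47 with the GC and length trend removed. Of the 9 keratins, 4 rose and none fell, where 14.7% of all tested genes rose, 13.5% fell and 28.2% changed in either direction, and the medians were 0.61 over the 9 keratins and 0.01 over all tested genes.

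**Figure D3:**
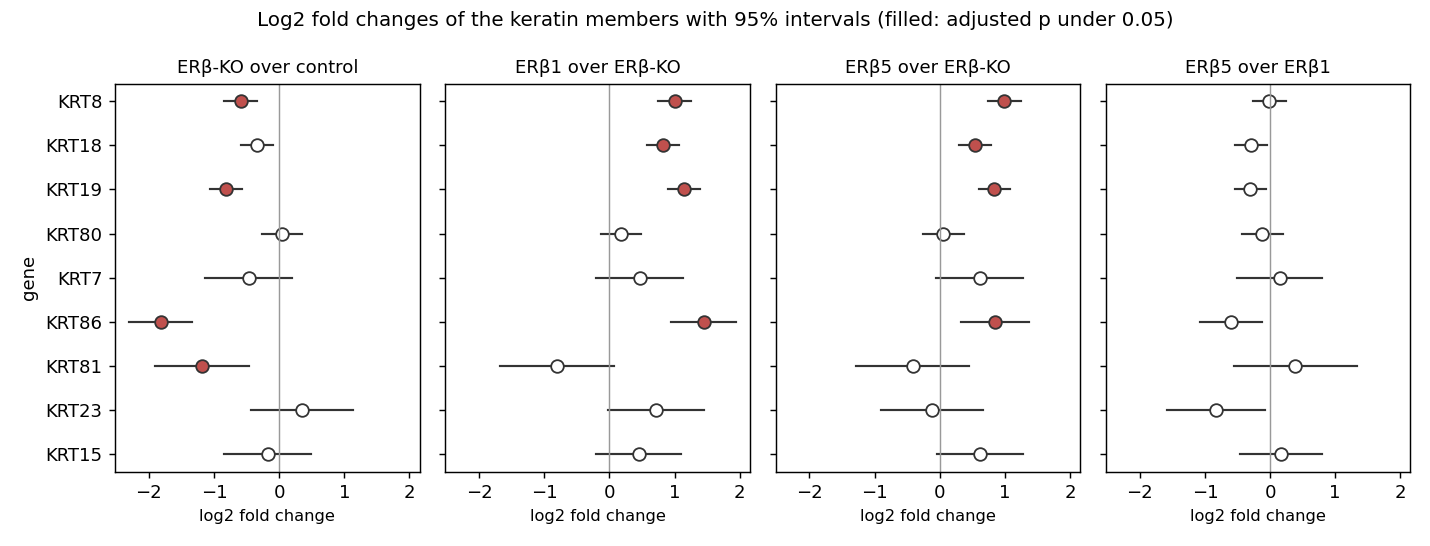
Log2 difference of each keratin between groups, with bars for the 95% confidence interval from edgeR and filled points for adjusted p under 0.05. KRT8, KRT18, KRT19 and KRT86 pass above 0 in both isoform groups against ERβ-KO, and none of the 9 passes between ERβ5 and ERβ1.

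Between the isoforms, no keratin passed. By edgeR's quasi-likelihood test 0 of the 9 keratins were called in ERβ5 against ERβ1, where 4.66% of all tested genes were (3.49% higher and 1.18% lower), and 4 had an unadjusted p under 0.05 (KRT18, KRT19, KRT23 and KRT86, all lower in ERβ5). DESeq2 also called 0. KRT8 was nearly level, with a log2 difference of -0.01 and a 95% interval of -0.26 to 0.24. The interval was -0.53 to -0.04 for KRT18 and -0.54 to -0.06 for KRT19. With the GC and length trend removed, KRT18 (-0.31, edgeR adjusted p = 0.0444) and KRT19 (-0.36, adjusted p = 0.022) passed as lower in ERβ5, and over the 12 alternatives their adjusted p ran from 0.0444 to 0.379 and from 0.022 to 0.438.

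Against control, KRT8 and KRT18 passed the threshold in 1 isoform group each. KRT18 was higher in ERβ1 than in control (log2 0.48 ± 0.11, edgeR adjusted p = 0.0362), and KRT8 was higher in ERβ5 than in control (0.40 ± 0.11, adjusted p = 0.0387). KRT8 in ERβ1 against control differed by nearly the same amount (0.41 ± 0.11, edgeR adjusted p = 0.0681) and did not pass, and KRT19 passed in neither isoform group. In ERβ1 against control KRT8 passed in 5 of the 8 alternatives that left out no library, DESeq2 among them (0.41, adjusted p = 0.0189), and KRT19 passed in 3 (with edgeR adjusted p of 0.0217 to 0.0464), but neither passed with a library left out. The KRT18 call in ERβ1 was lost when any 1 of the 4 libraries was left out (log2 0.39 to 0.57, with edgeR adjusted p of 0.112 to 0.461). The KRT8 call in ERβ5 was lost without control replicate 1 (0.33, edgeR adjusted p = 0.343), control replicate 2 (0.47, adjusted p = 0.124) or ERβ5 replicate 2 (0.30, adjusted p = 0.18), and in a fit of the compared groups alone (0.40, adjusted p = 0.0596).

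The balance of the keratin types was compared as the summed level of type II over that of type I members, per kilobase. It was 0.844 and 0.916 in ERβ5, 0.744 and 0.704 in ERβ1, 0.729 and 0.648 in ERβ-KO, and 0.739 and 0.733 in control. Both ERβ5 libraries lay above all others, while the ERβ1 libraries overlapped those of both ERβ-KO and control. KRT8 over KRT18 was also highest in ERβ5, at 1.21 and 1.31 in ERβ5, 1.08 and 0.992 in ERβ1, 0.983 and 0.863 in ERβ-KO, and 1.10 and 1.08 in control. For that ratio the ERβ1 libraries lay above both ERβ-KO libraries. With 2 libraries against 2, an exact two-sided permutation test cannot go below p = 0.333, which is the value it gave for ERβ5 against ERβ1. The ratio rests on mRNA and does not give the balance of the proteins. Both ratios also leave out reads without a single place in the genome, which can affect KRT8 and KRT18 more than KRT19.

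**Figure D4:**
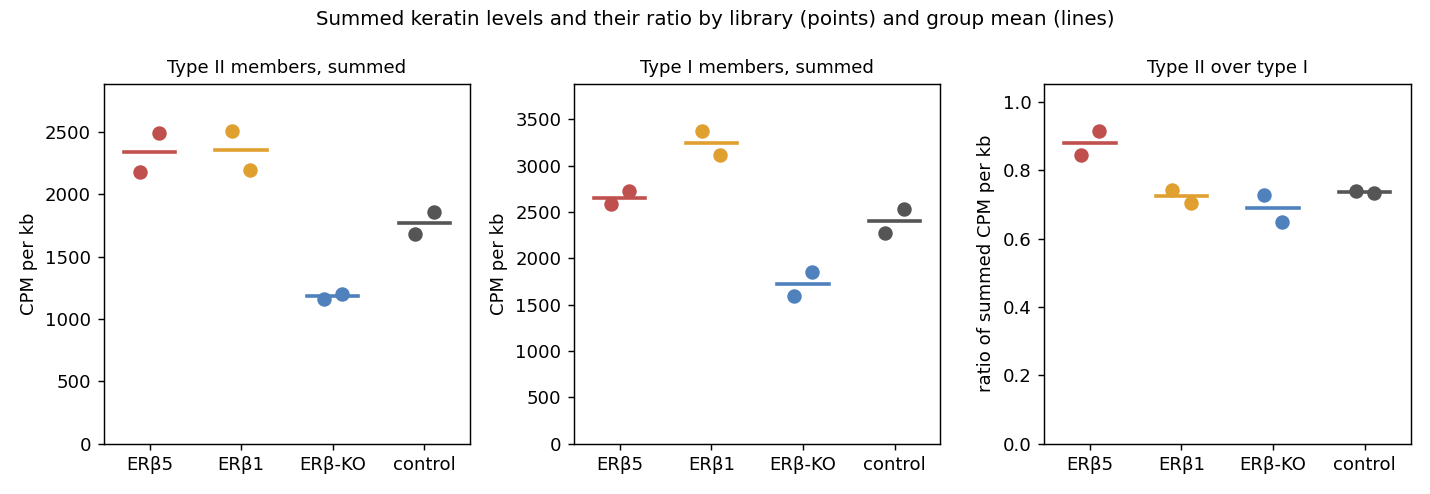
Summed level of the type II members, of the type I members, and the ratio of the sums, in CPM per kb, with 1 point for each library and a line at each group mean (n = 2 per group). The 2 ERβ5 libraries have the highest ratios, 0.844 and 0.916, and the ERβ-KO libraries have the lowest sums.

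KRT81 and KRT86 encode hair keratins, type II proteins of the hair shaft in which mutations cause the brittle hair disorder monilethrix, and KRT81 is also known from breast cancer cells. They are near copies of each other. In an alignment of their coding sequences 94.2% of 1454 bases were identical, and 56.2% of aligned windows of 50 bases, the length of the reads, were the same in both. A read from such a window has no single place in the genome. The first pair of stretches below is shared letter for letter, and the second is where the coding sequences differ most, so that reads there can be placed. Both are from the canonical GENCODE transcripts on GRCh37 chromosome 12, and capitals mark the 17 bases that differ between the pair.
KRT81, coding bases 61 to 110: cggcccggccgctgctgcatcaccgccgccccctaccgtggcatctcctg
KRT86, coding bases 61 to 110: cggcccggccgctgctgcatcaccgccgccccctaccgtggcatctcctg
KRT81, coding bases 1341 to 1390: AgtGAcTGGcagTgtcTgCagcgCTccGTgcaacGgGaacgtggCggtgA
KRT86, coding bases 1344 to 1393: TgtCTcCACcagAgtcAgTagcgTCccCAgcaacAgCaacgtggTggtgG

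KRT81 (chr12:52679697-52685318, minus strand) lies within the annotated span of KRT86 (chr12:52643084-52702947, plus strand). Their canonical transcripts share no exon bases. With the shared sequence, and with the strand setting of the counting not given in the sources used here, the levels of this pair are uncertain. Both were low in all libraries. KRT86 had 63 and 47 reads in ERβ5, 76 and 123 in ERβ1, 38 and 34 in ERβ-KO, and 138 and 132 in control. KRT81 had 13 and 21 reads in ERβ5, 10 and 22 in ERβ1, 26 and 28 in ERβ-KO, and 67 and 64 in control. Both genes were highest in control, but KRT86 had its lowest mean in ERβ-KO and KRT81 in ERβ1.

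In ERβ-KO libraries KRT86 had 0.872 and 1.12 CPM, against 3.36 and 3.60 CPM in control. That was the largest fall among the 9 keratins, with a log2 difference of -1.82 ± 0.22 (edgeR adjusted p = 0.000885), and it held in all 12 alternative fits. KRT81 had 0.597 and 0.922 CPM in ERβ-KO, against 1.63 and 1.75 CPM in control (-1.18 ± 0.33, edgeR adjusted p = 0.0321). The KRT81 call was lost without control replicate 1 (-1.23, edgeR adjusted p = 0.124), control replicate 2 (-1.13, adjusted p = 0.179) or ERβ-KO replicate 1 (-0.87, adjusted p = 0.232), with the GC and length trend removed (-0.85, adjusted p = 0.0899) and in DESeq2 (-1.18, adjusted p = 0.0749).

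Against ERβ-KO, KRT86 rose in ERβ1, to 2.85 and 2.54 CPM (log2 1.44 ± 0.23, edgeR adjusted p = 0.00125). It also rose in ERβ5, to 1.81 and 1.73 CPM (0.85 ± 0.24, edgeR adjusted p = 0.0236). The ERβ5 call was lost without ERβ-KO replicate 1 (0.66, edgeR adjusted p = 0.147), ERβ5 replicate 1 (0.81, adjusted p = 0.064) or ERβ5 replicate 2 (0.87, adjusted p = 0.0708). It was also lost with the GC and length trend removed (0.50, edgeR adjusted p = 0.14) and with the compared groups alone (0.84, adjusted p = 0.0659). KRT81 had 0.376 and 0.455 CPM in ERβ1 and 0.373 and 0.771 CPM in ERβ5, and did not pass against ERβ-KO in either (log2 -0.81 ± 0.40 and -0.42 ± 0.39, edgeR adjusted p = 0.158 and 0.446). Per kilobase, KRT86 over KRT81 was 4.16 and 1.92 in ERβ5, 6.52 and 4.80 in ERβ1, 1.25 and 1.04 in ERβ-KO, and 1.77 and 1.77 in control.

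Against control, KRT81 was lower in ERβ1 (log2 -1.99 ± 0.36, edgeR adjusted p = 0.0103) and in ERβ5 (-1.60 ± 0.36, adjusted p = 0.0125), and KRT86 was lower in ERβ5 (-0.97 ± 0.21, adjusted p = 0.0105). KRT86 in ERβ1 did not pass (-0.37 ± 0.20, edgeR adjusted p = 0.332). With KRT18 that made 1 keratin higher and 1 lower in ERβ1 against control, where 1.36% of tested genes rose, 2.7% fell and 4.06% changed in all. In ERβ5 against control 1 was higher and 2 were lower, where 6.85% rose, 6.31% fell and 13.2% changed in all. The KRT81 call in ERβ1 was lost when any 1 library was left out (log2 -2.16 to -1.88, edgeR adjusted p of 0.0549 to 0.0832). In ERβ5 it was lost without control replicate 1 (-1.64, edgeR adjusted p = 0.0652), control replicate 2 (-1.54, adjusted p = 0.0707) or ERβ5 replicate 1 (-1.13, adjusted p = 0.073). The KRT86 call in ERβ5 was lost without control replicate 1 (-1.02, edgeR adjusted p = 0.0655) or control replicate 2 (-0.92, adjusted p = 0.084).

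The remaining 4 members passed in none of the 6 comparisons, although without a filter on low counts KRT7 and KRT23 passed in 3 each. KRT80, a type II keratin found in many epithelia near desmosomes, was the steadiest, at 33.5 and 38.2 CPM in ERβ5, 41.2 and 36.6 in ERβ1, 29.7 and 39.3 in ERβ-KO, and 33.4 and 33.2 in control. KRT7, a type II keratin of ducts and glands, had 4.94 and 9.99 CPM in ERβ5, 7.40 and 6.05 in ERβ1, 4.77 and 4.91 in ERβ-KO, and 5.38 and 8.05 in control. The ERβ5 libraries differed most for KRT7, and without ERβ5 replicate 1 it passed as higher in ERβ5 than in ERβ-KO (log2 1.04, edgeR adjusted p = 0.00632).

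KRT23, a type I keratin reported as inducible by histone deacetylase inhibitors in cancer cells, had 1.67 and 1.21 CPM in ERβ5, 2.93 and 2.29 in ERβ1, 1.77 and 1.35 in ERβ-KO, and 0.754 and 1.75 in control. Both ERβ1 libraries were the highest. In ERβ1 against control its log2 difference was 1.06 ± 0.34 (edgeR adjusted p = 0.114), and it passed without control replicate 2 (1.77, adjusted p = 0.0369). KRT15, a type I keratin of basal cells in stratified epithelia and of the hair follicle bulge, had 1.44 and 1.10 CPM in ERβ5, 1.28 and 1.03 in ERβ1, 0.895 and 0.758 in ERβ-KO, and 0.803 and 1.09 in control. Its 95% intervals spanned 0 in all 6 comparisons.

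KRT8 and KRT18 have many processed pseudogenes, and part of their sequence recurs elsewhere in the genome. Of the windows of 50 bases in the canonical transcript, 47.1% for KRT8 and 39.2% for KRT18 also occur outside the gene, against 1.79% for KRT19, 0.825% for KRT7, 0.418% for KRT80 and 0 for KRT15 and KRT23. Over the whole canonical transcript, 35.2% of windows for KRT81 and 29.5% for KRT86 recur outside the exons of that transcript. Alignments without a single place were kept out of the genes, which can lower the levels of KRT8 and KRT18 relative to KRT19. They were 35.5 and 34.7% of all counted entries in ERβ5, 37.7 and 37.8% in ERβ1, 35.4 and 36.4% in ERβ-KO, and 39.7 and 39.9% in control. Their part in the differences of KRT8 and KRT18 was not tested.

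Across the 8 libraries, KRT8, KRT18 and KRT19 followed each other closely. Pearson's r between their log levels was 0.926 for KRT8 and KRT18, 0.936 for KRT8 and KRT19 and 0.937 for KRT18 and KRT19, as a description of 8 libraries in 4 groups that share depth and base composition. KRT81 and KRT86 had r = 0.319. Among tested genes of at least 5 CPM on average, those most like KRT8 were MARCKSL1 (r = 0.996), POLR3K (0.995) and BCAT2 (0.992), and those most like KRT19 were MRPS7 (0.995), GCDH (0.994) and BCAM (0.992). For KRT86 they were TRPT1 (0.992), NUCB1 (0.991) and APEX1 (0.99), for KRT81 ERP44 (0.982), FICD (0.977) and HS1BP3 (0.973), and for KRT23 BECN1 (0.927), ETFA (0.904) and LOC729678 (0.897).

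The other 51 keratin symbols were nearly silent. There were 25 with 0 reads in all 8 libraries, which allows up to 0.113 CPM in the shallowest library and 0.062 CPM in the deepest when 3 reads are taken as the limit of a 0 count, for counting error only. Another 20 had at least 1 read but too few to be tested, with at most 37 reads over all libraries. KRT5, the type II keratin of basal epithelial cells, had 0 reads, and KRT14, its type I partner, had 0 to 2 reads per library. The other 6 were tested. KRT10, a keratin of differentiating epidermis, was the most abundant at 14.2 to 23.6 CPM and passed in no comparison, and neither did KRT17, KRT24 and KRT83.

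KRT13, a type I keratin of stratified mucosa, had 1.09 and 1.69 CPM in ERβ5 libraries, 1.16 and 1.22 in ERβ1, 0.367 and 0.297 in ERβ-KO, and 0.268 and 0.218 in control. Both isoform groups had higher means than ERβ-KO and control. Against ERβ-KO the log2 difference was 2.02 ± 0.35 in ERβ5 (edgeR adjusted p = 0.0033) and 1.82 ± 0.35 in ERβ1 (adjusted p = 0.00388), and against control it was 2.48 ± 0.37 in ERβ5 (adjusted p = 0.0012) and 2.28 ± 0.37 in ERβ1 (adjusted p = 0.00507). With the GC and length trend removed, an alternative chosen after seeing the data, the 4 calls of KRT13 held (log2 1.59 to 2.45). KRT8P41, a KRT8 pseudogene with an uncertain level because it copies KRT8 sequence, was higher than in ERβ-KO in ERβ5 (1.03 ± 0.32, edgeR adjusted p = 0.0356) and ERβ1 (1.00 ± 0.32, adjusted p = 0.0401), and both calls were lost with the trend removed (0.79 and 0.77, adjusted p = 0.11 and 0.104).

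The mRNAs for proteins that tie keratin filaments to desmosomes and hemidesmosomes moved in both directions. Of 26 genes for keratin linkers and junction partners, 21 were tested. In ERβ1 against ERβ-KO 7 rose and 3 fell, in ERβ5 against ERβ-KO 6 rose and 3 fell, and in ERβ-KO against control 1 rose and 2 fell. Of all tested genes 24.9, 28.2 and 17.5% changed in those comparisons, so the 3 of 21 in ERβ-KO against control were no larger a share than the background. The medians of the list were 0.03, 0.17 and -0.07 on the log2 scale, against 0.00, 0.01 and 0.01 over all tested genes. With the GC and length trend removed, 3 rose and 3 fell in ERβ1 against ERβ-KO, 3 rose and 1 fell in ERβ5 against ERβ-KO, and 3 rose and 2 fell in ERβ-KO against control. PLEC, which encodes the cross-linker plectin, had 539 ± 27.3 CPM in ERβ5, 476 ± 47.8 in ERβ1, 313 ± 1.41 in ERβ-KO and 404 ± 7.78 in control. It fell in ERβ-KO against control (-0.37 ± 0.10, edgeR adjusted p = 0.0292) and rose against ERβ-KO in ERβ1 (0.61 ± 0.10, adjusted p = 0.0017) and ERβ5 (0.78 ± 0.10, adjusted p = 0.000683). With the trend removed, PLEC differed by 0.05 in ERβ-KO against control (edgeR adjusted p = 0.663), 0.24 in ERβ1 against ERβ-KO (adjusted p = 0.0255) and 0.21 in ERβ5 against ERβ-KO (adjusted p = 0.0527), so that of these 3 calls the ERβ1 call held. PLEC was also higher in ERβ5 than in control (0.42 ± 0.10, edgeR adjusted p = 0.0188).

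The linker genes EPPK1 (epiplakin, a keratin-binding plakin), PKP3 (the desmosomal plaque protein plakophilin 3) and JUP (plakoglobin) rose in ERβ1 against ERβ-KO, by 0.72 ± 0.19, 0.55 ± 0.13 and 0.54 ± 0.10 on the log2 scale. In ERβ5 against ERβ-KO, EPPK1 rose by 1.01 ± 0.19, PKP3 by 0.78 ± 0.13 and EVPL (the cornified-envelope plakin envoplakin) by 0.70 ± 0.13. Of these 6 rises, those of JUP in ERβ1 (0.27, edgeR adjusted p = 0.0163) and PKP3 in ERβ5 (0.27, adjusted p = 0.0272) still passed with the trend removed. The other 4 ran from 0.20 to 0.60 (adjusted p of 0.0561 to 0.151). JUP also rose in ERβ5 (0.56 ± 0.10, edgeR adjusted p = 0.00382) and EVPL in ERβ1 (0.46 ± 0.13, adjusted p = 0.0213), both against ERβ-KO. Values with the trend removed are not given here for these additional rises. In ERβ-KO against control, PKP1 (plakophilin 1) was lower (-0.91 ± 0.29, edgeR adjusted p = 0.047; 0.0852 with the trend removed), and TCHP (trichoplein, which binds keratin filaments) was higher (0.37 ± 0.11, adjusted p = 0.047). In ERβ5 against control 6 rose and 1 fell, where 13.2% of all tested genes changed, and 7 rose and 1 fell with the trend removed. By edgeR 0 of the 21 passed in ERβ5 against ERβ1 and in ERβ1 against control, where 4.66 and 4.06% of all tested genes changed. In that order 2 and 5 had an unadjusted edgeR p under 0.05, and DESeq2 called 0 and 1. With the trend removed, 1 fell in ERβ5 against ERβ1 and 3 rose in ERβ1 against control.

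Of the other intermediate filament genes, 8 of 15 could be tested. Of the 8, 5 fell and none rose in ERβ1 against ERβ-KO, where 12.5% of all tested genes fell, and 3 fell and 1 rose in ERβ5 against ERβ-KO, where 13.5% fell. VIM had 3.48 ± 1.26 CPM in ERβ5, 2.26 ± 0.63 in ERβ1, 8.26 ± 0.58 in ERβ-KO and 10.1 ± 3.26 in control. It fell against ERβ-KO in ERβ1 (log2 -1.90 ± 0.30, edgeR adjusted p = 0.00125) and in ERβ5 (-1.26 ± 0.28, adjusted p = 0.0102). LMNB1, the nuclear lamin B1 of dividing cells, fell in ERβ1 (-1.12 ± 0.11, edgeR adjusted p = 4.73e-05) and in ERβ5 (-0.93 ± 0.11, adjusted p = 0.000396), and PRPH, the neuronal filament peripherin, fell in both (-0.54 ± 0.18 in ERβ1 and -0.82 ± 0.18 in ERβ5). LMNA rose in ERβ5 (0.43 ± 0.13, edgeR adjusted p = 0.031), but not with the GC and length trend removed (0.08, adjusted p = 0.51), while the falls of VIM, LMNB1 and PRPH against ERβ-KO all held. In ERβ-KO against control edgeR called 0 of the 8, with 3 at an unadjusted p under 0.05, where 17.5% of all tested genes changed. DESeq2 also called 0, and edgeR with the trend removed called 1, as higher. VIM, LMNB1 and PRPH were also lower than in control in both isoform groups, 3 of the 8 in each. Of all tested genes 2.7% fell in ERβ1 against control and 6.31% in ERβ5 against control. VIM differed from control by -2.20 ± 0.29 in ERβ1 (edgeR adjusted p = 0.00185) and by -1.55 ± 0.28 in ERβ5 (adjusted p = 0.00437).

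Of 24 transcription factors linked to epithelial genes, all tested, 4 rose in ERβ-KO against control, 5 rose and 6 fell in ERβ1 against ERβ-KO, and 5 rose and 3 fell in ERβ5 against ERβ-KO. Of all tested genes 17.5, 24.9 and 28.2% changed there, and the 4 of 24 in ERβ-KO against control were near that background. The medians of the list were 0.10, -0.05 and 0.03 on the log2 scale, against 0.01, 0.00 and 0.01 over all tested genes. EHF, an epithelial ETS factor, had 47.6 ± 2.68 CPM in ERβ5, 23.0 ± 4.30 in ERβ1, 55.2 ± 2.54 in ERβ-KO and 23.9 ± 1.64 in control, an order that differs from that of KRT8, KRT18 and KRT19. It rose in ERβ-KO against control (1.21 ± 0.13, edgeR adjusted p = 0.0005), fell in ERβ1 against ERβ-KO (-1.26 ± 0.13, adjusted p = 9.55e-05) and was higher in ERβ5 than in ERβ1 (1.04 ± 0.13, adjusted p = 0.00121). The Krüppel-like factors KLF4 and KLF5 rose in ERβ-KO against control and fell in ERβ1 against ERβ-KO, and KLF5 also fell in ERβ5 against ERβ-KO (-0.97 ± 0.20, adjusted p = 0.00704). GRHL3, a grainyhead factor of surface epithelium, rose against ERβ-KO in ERβ1 (1.35 ± 0.25, edgeR adjusted p = 0.004) and ERβ5 (0.82 ± 0.25, adjusted p = 0.0363), and its ERβ5 call was lost with the trend removed (0.75, adjusted p = 0.0744). RARA, a retinoic acid receptor, had 66.0 ± 5.21 CPM in ERβ5, 49.4 ± 3.44 in ERβ1, 35.4 ± 0.45 in ERβ-KO and 37.2 ± 0.082 in control. It rose against ERβ-KO in ERβ5 (0.90 ± 0.11, edgeR adjusted p = 0.000433) and ERβ1 (0.48 ± 0.11, adjusted p = 0.00827). RARA was also higher in ERβ5 than in ERβ1 (0.42 ± 0.11, edgeR adjusted p = 0.0447) and control (0.83 ± 0.11, adjusted p = 0.000529). GATA3, a luminal factor, had 1692 ± 184 CPM in ERβ5, 1783 ± 86.6 in ERβ1, 1120 ± 6.19 in ERβ-KO and 1365 ± 35.8 in control, and rose against ERβ-KO in ERβ1 (0.67 ± 0.11, edgeR adjusted p = 0.00122) and ERβ5 (0.60 ± 0.11, adjusted p = 0.00359). In ERβ5 against ERβ-KO both calls held with the trend removed (0.55 for RARA and 0.49 for GATA3).

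The 15 luminal markers, none of them a keratin, summed to 10596 to 11157 CPM in ERβ5, 10896 to 11092 in ERβ1, 9985 to 10086 in ERβ-KO and 10388 to 10489 in control, and all 15 were detected in every library. In ERβ-KO against control 2 of the 15 fell and none rose, and in each isoform group against ERβ-KO 4 rose and 1 fell. Among all tested genes 17.5% changed in ERβ-KO against control, 24.9% in ERβ1 against ERβ-KO and 28.2% in ERβ5 against ERβ-KO. In those comparisons the luminal counts were near or little above the background. Against control, 3 rose and 3 fell in ERβ5, where 13.2% of all tested genes changed. In ERβ1 none rose and 1 fell, where 4.06% changed. Between the isoforms, 3 rose and none fell in ERβ5 against ERβ1, where 4.66% changed. With the GC and length trend removed, 1 luminal marker rose and 1 fell in ERβ-KO against control. With that step 2 rose and 2 fell in ERβ1 against ERβ-KO, and 3 rose and 1 fell in ERβ5 against ERβ-KO. The 10 basal and myoepithelial markers, KRT5, KRT14 and KRT17 included, summed to 329 to 348 CPM in ERβ5, 324 to 370 in ERβ1, 234 to 269 in ERβ-KO and 305 to 321 in control. CDH3, the gene for P-cadherin, named after its values were seen, held most of that sum, at 225 CPM on average in ERβ5, 228 in ERβ1, 151 in ERβ-KO and 191 in control. It fell in ERβ-KO against control (log2 -0.34 ± 0.10, edgeR adjusted p = 0.0428) and rose against ERβ-KO in ERβ1 (0.59 ± 0.10, adjusted p = 0.00218) and ERβ5 (0.58 ± 0.10, adjusted p = 0.00382). MYLK, the gene for myosin light chain kinase, also named after its values were seen, went the other way and fell against ERβ-KO in ERβ1 (-1.08 ± 0.28, edgeR adjusted p = 0.0174) and ERβ5 (-1.15 ± 0.29, adjusted p = 0.0151). In each of these comparisons CDH3 and MYLK were the 2 called of 7 tested basal markers, and in ERβ-KO against control CDH3 was the 1 called. Those basal counts were near the shares of all tested genes, 24.9% in ERβ1 against ERβ-KO, 28.2% in ERβ5 against ERβ-KO and 17.5% in ERβ-KO against control. KRT5 was at 0 reads. Glial markers summed to 227 to 228 CPM in ERβ5, 221 to 241 in ERβ1, 298 to 334 in ERβ-KO and 273 to 283 in control. Of 9 glial markers tested, 6 fell and 1 rose in ERβ1 against ERβ-KO, where 12.5% of all tested genes fell. For ERβ5 against ERβ-KO, 3 fell and none rose, where 13.5% fell. Against control none rose, and 5 fell in ERβ1, where 2.7% of all tested genes fell, and 3 in ERβ5, where 6.31% fell. The knockout had 1 higher and 1 lower against control, and ERβ5 had 1 lower against ERβ1, where 17.5 and 4.66% changed. The part of these marker genes in the keratin differences was not tested.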

How the data were processed

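Per the labels' protocols, total RNA libraries (TruSeq) gave single-end reads of 50 bases. The deposited values are raw counts of reads per gene; per the submitters' processing notes they came from bcl2fastq, TopHat2 2.0.8b on hg19 and HTSeq. Any HTSeq version, strand setting or annotation is not given in the sources used here. The 5 closing entries of each file, which name no gene, hold 42.9 to 47.5% of entries and were left out of library sizes and tests.

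Low genes were removed by filterByExpr (at least 10 counts in enough libraries and 15 in total), and the rest scaled by TMM and tested with edgeR 4.0.16's quasi-likelihood test in R 4.3.3, with all 8 libraries in 1 fit, adjusted by Benjamini-Hochberg over 13915 genes. Levels are CPM on TMM-scaled totals. Transcript length, GC content and positions come from GENCODE on GRCh37, the build of hg19. The members and lists were chosen with earlier results of these data known. Named genes are the 9 members, other tested keratins, up to 4 called, non-overlapping genes with the largest change per list and comparison, and the 3 genes most like each member whose group means span at least 1 log2 unit; luminal, basal, glial and ESR2 values serve as label checks. The fit was tested on simulated data. Alternatives were RLE size factors, no filter, at least 1 CPM in 2 libraries, only the compared groups, DESeq2 1.42.0, a replicate block, GC and length trend removal with and without that block, and leaving out each library. Intervals and limits of 0 counts cover counting error only where they rest on reads.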

Additional observations from a re-analysis of the deposited data

How the results depend on the processing

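Of the log2 differences of the 9 keratins in 6 comparisons under 12 alternatives each, 173 called values kept their call and 31 lost it. No called difference changed sign. Of the values not past the threshold, 387 stayed so, 24 passed and 33 changed sign, and the cause was not tested. RLE size factors, the 1 CPM minimum and DESeq2 left each count of called keratins within 1.5 times, and DESeq2 called 853 genes in ERβ1 against control. Without a filter, 1 keratin was called in ERβ5 against ERβ1 and 4 in ERβ1 against control, with 1375 and 1384 of all genes. With only the compared groups, 4 keratins were called in ERβ1 against control, and all genes gave 4351 in ERβ-KO against control, 421 in ERβ5 against ERβ1 and 1107 in ERβ1 against control. There KRT7 was at 0.0080 in ERβ1 against control.

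With the GC and length trend removed, 2 keratins were called in ERβ5 against ERβ1 and 4 in ERβ1 against control. All genes gave 1589 in ERβ-KO against control, 2435 in ERβ5 against ERβ-KO, 1146 in ERβ5 against ERβ1, 1343 in ERβ1 against control and 2967 in ERβ5 against control. KRT15 was at 0.024 in ERβ-KO against control, KRT80 at -0.13 in ERβ5 against ERβ-KO, KRT7 at 0.025 in ERβ1 against control and KRT19 at -0.0046 in ERβ5 against control.

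Replicate numbers are shared between groups, but the labels do not tie them to a culture or day, and correlations of same-numbered deviations ran from -0.12 to 0.139, so they were not taken as pairs. A replicate block changed no call among the 9 keratins, with 2532 genes called in ERβ-KO against control, and put KRT7 at 0.023 in ERβ1 against control. Block and trend removal together called 1 keratin in ERβ5 against ERβ1 and 4 in ERβ1 against control, with 2517 genes in ERβ5 against ERβ-KO, 1248 in ERβ5 against ERβ1, 1456 in ERβ1 against control and 3109 in ERβ5 against control. KRT15 was then at 0.011 in ERβ-KO against control, KRT80 at -0.12 in ERβ5 against ERβ-KO, KRT7 at 0.036 in ERβ1 against control and KRT19 at -0.0066 in ERβ5 against control.

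Each library was left out of the comparisons that hold its group, and a library left alone was assumed to vary like the other groups. Called keratins numbered 2 to 5 in ERβ-KO against control, 0 to 1 in ERβ1 against control, 0 to 2 in ERβ5 against control, 4 in each case in ERβ1 against ERβ-KO, 3 to 4 in ERβ5 against ERβ-KO and 0 in ERβ5 against ERβ1. All genes gave 237 to 1480, 128 to 235, 587 to 2143, 1198 to 3773, 1674 to 4378 and 125 to 1389 in that order. In ERβ-KO against control KRT15 ran from -0.39 to 0.053, KRT23 from -0.15 to 1.06 and KRT80 from -0.16 to 0.24. In ERβ1 against control KRT7 ran from -0.27 to 0.31. In ERβ5 against control KRT7 ran from -0.44 to 0.58, KRT19 from -0.033 to 0.072 and KRT23 from -0.27 to 0.94. In ERβ1 against ERβ-KO KRT80 ran from -0.020 to 0.38. In ERβ5 against ERβ-KO KRT23 ran from -0.38 to 0.10, KRT80 from -0.14 to 0.27 and KRT81 from -0.99 to 0.056. In ERβ5 against ERβ1 KRT7 ran from -0.43 to 0.58, KRT8 from -0.11 to 0.090, KRT15 from -0.043 to 0.34 and KRT81 from -0.18 to 0.86.

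Without transcript length, type II over type I was 1.12 in ERβ5, 0.923 in ERβ1, 0.880 in ERβ-KO and 0.940 in control. KRT81, with 10 to 67 reads per library, and the other members under 5 CPM are limited by depth.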
